A study of Homo sapiens with 6 samples.

Results

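The proteasome is the protease complex that removes proteins tagged with ubiquitin, and its subunit, regulator and assembly genes were followed in MM1S cells. MM1S is a human plasma cell line derived from a patient with myeloma and long kept in culture. Members were all genes whose symbol starts with PSMA, PSMB, PSMC, PSMD, PSME, PSMF or PSMG and a digit, plus POMP and ADRM1, without PSMC3IP and pseudogenes, read only from probe sets with that symbol alone. This gave 51 of 19775 genes and 98 of 54613 probe sets (a probe set is the array's unit of measurement, and a gene can have several). Of these, 44 genes with 84 probe sets encode a subunit, activator, inhibitor or assembly factor. The other 7 share only the start of the symbol: the antisense or divergent transcripts PSMA3-AS1, PSMB8-AS1, PSMD6-AS2, PSMG3-AS1, PSMD7-DT and PSMD14-DT, and PSME3IP1, which encodes a partner protein of PSME3. PSMA6, PSMB11, PSMC5, PSMD7, PSMD13 and PSME2 had no probe set with their symbol alone and were not analysed here.

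RNA was measured on 6 single-colour arrays, 3 of MM1S cells labelled normoxia and 3 of MM1S cells labelled hypoxia. The treatment text, 24 h of hypoxic exposure, is the same on all 6 arrays, and no source used here gives the oxygen concentration or how the normoxia cells were handled. The labels do not say that the 3 arrays of a group came from separate cultures, so the p-values speak only to how far these arrays differ among themselves, a spread that may be technical. Levels are linear intensities as deposited, changes are the difference of the hypoxia from the normoxia mean of log2(intensity + 16), and a gene "rose" or "fell" where limma's Benjamini-Hochberg adjusted p over all genes was under 0.05.

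The 20S core particle is a barrel of stacked rings, in which the outer alpha rings gate the entry and the inner beta rings carry the proteolytic sites. The 19S cap binds ubiquitin chains, removes them and threads the substrate into the core, with a ring of ATPases in its base and a lid that holds the deubiquitinase. In immune cells the catalytic beta subunits can be replaced by PSMB8, PSMB9 and PSMB10, which gives the immunoproteasome, and dedicated chaperones that are not part of the finished particle assemble both core and cap. Plasma cells make and degrade large amounts of protein, and proteasome inhibitors that bind PSMB5 are a standard treatment of myeloma.

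The arrays had similar median intensities of 54.95 to 60.1. The 8 plasma cell markers examined had normoxia means of 335 (CD38) to 9674 (XBP1), and of these 4 fell, 1 rose and 3 did not pass. Of 9 measured markers of other cell types (B, T, myeloid, epithelial and erythroid), 3 rose, 2 fell and 4 did not pass, with normoxia means of 6.34 (CD14) to 1751 (HBB). PAX5, a B cell factor, rose from 85.8 to 303, MS4A1, a B cell surface gene, fell from 246 to 66.9, and the part of such shifts in the results was not tested. Among 5 well-known hypoxia-responsive genes examined (VEGFA, NDRG1, P4HA1, KDM3A and EGLN1), 5 rose, with changes of 0.70 to 2.39. Fewer cells and less RNA per cell cannot be told apart in such bulk samples.

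Transcripts of the proteasome were mostly lower in hypoxia, by moderate amounts, and the median change differed between parts of the particle. Of the 44 genes, 23 fell, 1 rose (PSME4) and 20 did not pass, with a median change of -0.22, whereas 20.6% of all genes fell, 16.9% rose and the median over all genes was -0.00016. The share of genes that fell depended on brightness: among 4239 genes with a mean intensity between 1024 and 8192, 37.4% fell, and 40 of the 44 members lay in this range, 21 of which fell. Every hypoxia array lay below every normoxia array for 30 members (25.8% of all genes) and above for 3 (22.1% of all genes). The shares of genes with such separate groups were not matched for brightness. A log2 change of -1 or lower was reached by 4 members (4.76% of all genes): PSMG1, PSMG3, PSMG4 and PSME3. The 19S cap had a median change of -0.37, and 11 of its 15 genes fell. For the constitutive core it was -0.17, and 6 of 14 genes fell. Within the core it was -0.36 for the alpha ring, -0.15 for the structural and -0.14 for the catalytic beta subunits. These 14 include PSMA8, a testis subunit gene read at only 11.6 in normoxia. Core assembly had a median of -1.05, and 4 of 5 genes fell. That median was the change of PSMG4, of whose 5 probe sets only 1 fell. The immunoproteasome subunits had a median of -0.017, with 0 of 3 past the threshold in limma.

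**Figure D1:**
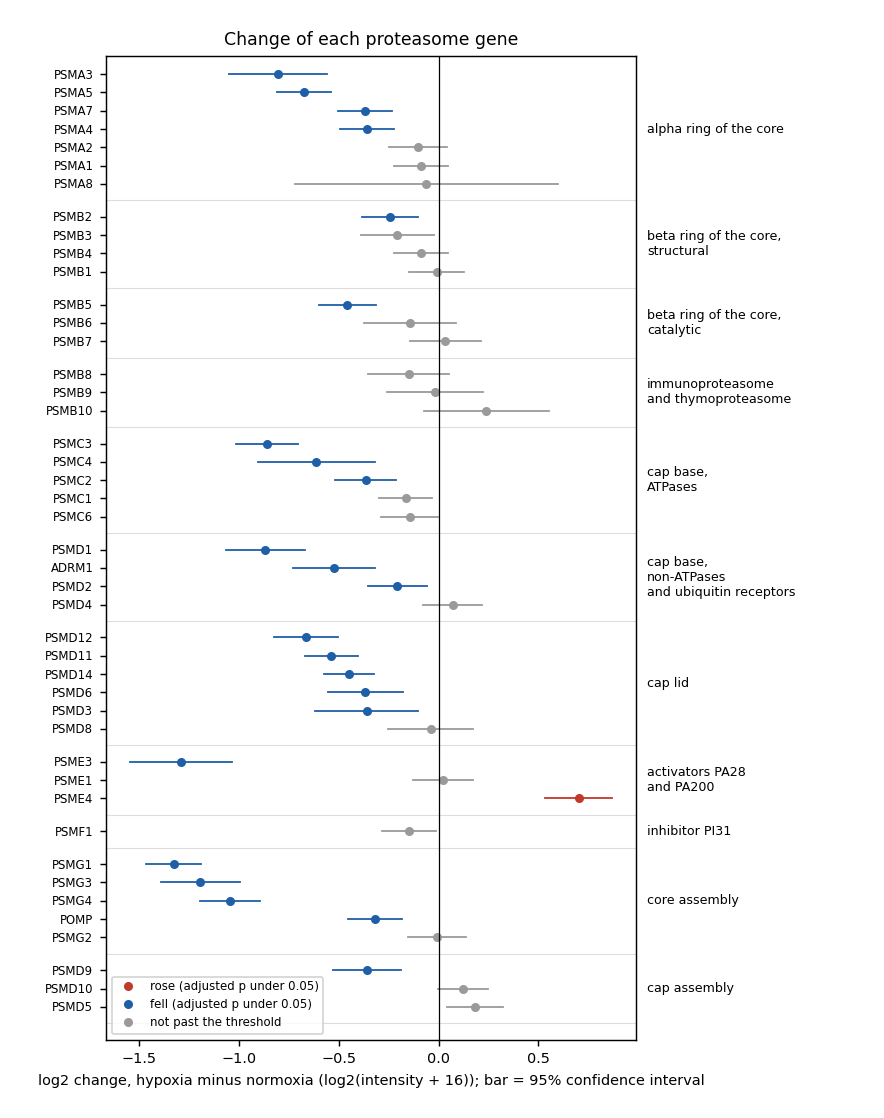
Log2 change (horizontal axis, hypoxia minus normoxia, log2(intensity + 16)) of the 44 proteasome genes, grouped by their role, with 95% confidence intervals from limma over 3 arrays per group; blue marks genes that fell, red the 1 that rose, grey those not past an adjusted p of 0.05. The core assembly genes PSMG1, PSMG3 and PSMG4 and the activator gene PSME3 lie farthest to the left, and PSME4 is the only gene that rose.

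The alpha ring genes encode the structural subunits that close and open the core. Of 7 measured, 4 fell, and all 7 changes were below 0 (50.2% of all genes). PSMA3 was at 5855, 5366 and 5459 in normoxia and at 3616, 3048 and 2890 in hypoxia. The hypoxia arrays were all lower, with the array numbered 0 the highest of its group in both conditions (log2 change -0.81, SE 0.0995, limma adjusted p = 0.00136). PSMA5 was at 3530, 3333 and 3460 in normoxia and at 2157, 2116 and 2176 in hypoxia, so that its hypoxia mean was 62.5% of the normoxia mean (log2 change -0.67, SE 0.054, limma adjusted p = 0.000263). PSMA7 and PSMA4 fell by 0.37 and 0.36. PSMA1 and PSMA2 did not pass, at -0.088 and -0.10, although their hypoxia arrays all lay below the normoxia arrays. PSMA8, an alpha subunit known from the testis, was read at 11.6 ± 8.88 in normoxia and 10.1 ± 5.90 in hypoxia (SD, n = 3), well below the median probe set of each array.

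The structural beta subunits PSMB1 to PSMB4 carry no active site. Of these 4 genes, 1 fell (20.6% of all genes) and 3 did not pass. PSMB2 was at 5516, 5664 and 5839 in normoxia and at 4630, 4910 and 4850 in hypoxia, without overlap (log2 change -0.24, SE 0.057, limma adjusted p = 0.0192). This call was lost without normoxia array 1, normoxia array 2 or hypoxia array 2 (limma adjusted p = 0.0583, 0.0713 and 0.0565). PSMB3 was at 6792, 7390 and 7466 in normoxia and at 5823, 6491 and 6441 in hypoxia. Its groups did not overlap, but it did not pass (log2 change -0.21, limma adjusted p = 0.0778, with a 95% interval of -0.39 to -0.025). It passed as lower with the replicate number as a block (limma adjusted p = 0.0402), and under 4 other alternatives: a pseudocount of 64, dim genes left out, median centring and an intensity trend (0.0133 to 0.0432). PSMB4 and PSMB1 were at -0.089 and -0.010.

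The 3 catalytic subunits of the constitutive core did not share one size of change. PSMB5, the chymotrypsin-like subunit, was at 2018, 2054 and 2165 in normoxia and at 1474, 1538 and 1519 in hypoxia. Its hypoxia mean was 72.6% of the normoxia mean with no overlap between arrays (log2 change -0.46, SE 0.057, limma adjusted p = 0.00146). PSMB6, the caspase-like subunit, was at 4505, 4879 and 5220 in normoxia and at 3978, 4588 and 4665 in hypoxia. Its groups overlapped, and it did not pass (log2 change -0.14, limma adjusted p = 0.306, with a 95% interval of -0.37 to 0.086). PSMB7, the trypsin-like subunit, was at 5090, 5396 and 5351 in normoxia and at 4990, 5627 and 5621 in hypoxia (log2 change 0.034, limma adjusted p = 0.769, with a 95% interval of -0.14 to 0.21). The arrays numbered 0 were the lowest of both groups for all of these genes.

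The immunoproteasome subunits replace these sites one for one, PSMB8 for PSMB5, PSMB9 for PSMB6 and PSMB10 for PSMB7. None of the 3 passed in limma, and their unadjusted p-values were 0.120, 0.869 and 0.109. PSMB8 was at 2221, 2462 and 2433 in normoxia and at 1957, 2275 and 2184 in hypoxia (log2 change -0.15, limma adjusted p = 0.227, with a 95% interval of -0.35 to 0.053). PSMB9 was at 2818, 3004 and 3295 in normoxia and at 2691, 3159 and 3168 in hypoxia (log2 change -0.017, limma adjusted p = 0.922, with a 95% interval of -0.26 to 0.22). PSMB10 was at 2458, 2852 and 2974 in normoxia and at 2783, 3620 and 3418 in hypoxia (log2 change 0.24, limma adjusted p = 0.211, with a 95% interval of -0.073 to 0.55). The groups overlapped for all of them, and the interval of PSMB8 includes a change as large as that of PSMB2.

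The immunoproteasome subunit was compared with its constitutive counterpart within each array, which takes out differences shared by the whole array. The log2 ratio of PSMB8 to PSMB5, set to a mean of 0 in normoxia, was at -0.051, 0.072 and -0.021 there and at 0.22, 0.37 and 0.33 in hypoxia. That of PSMB9 to PSMB6 was at 0.0035, -0.019 and 0.016 in normoxia and at 0.12, 0.14 and 0.12 in hypoxia. That of PSMB10 to PSMB7 was at -0.11, 0.019 and 0.091 in normoxia and at 0.096, 0.30 and 0.22 in hypoxia. All 3 ratios were higher in each hypoxia array than in any normoxia array, by 0.31, 0.13 and 0.21 on average. In an exact two-sided permutation test over arrays each had p = 0.1, the smallest that 3 against 3 arrays allow, and 0.1 after Benjamini-Hochberg adjustment over the 3 pairs, so that none could pass 0.05. Such a ratio shows unequal change and not which of the genes moved. Separate groups were common: every hypoxia array lay above every normoxia array for 22.1% of all genes and below for 25.8%. The share among other gene pairs was not determined.

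**Figure D2:**
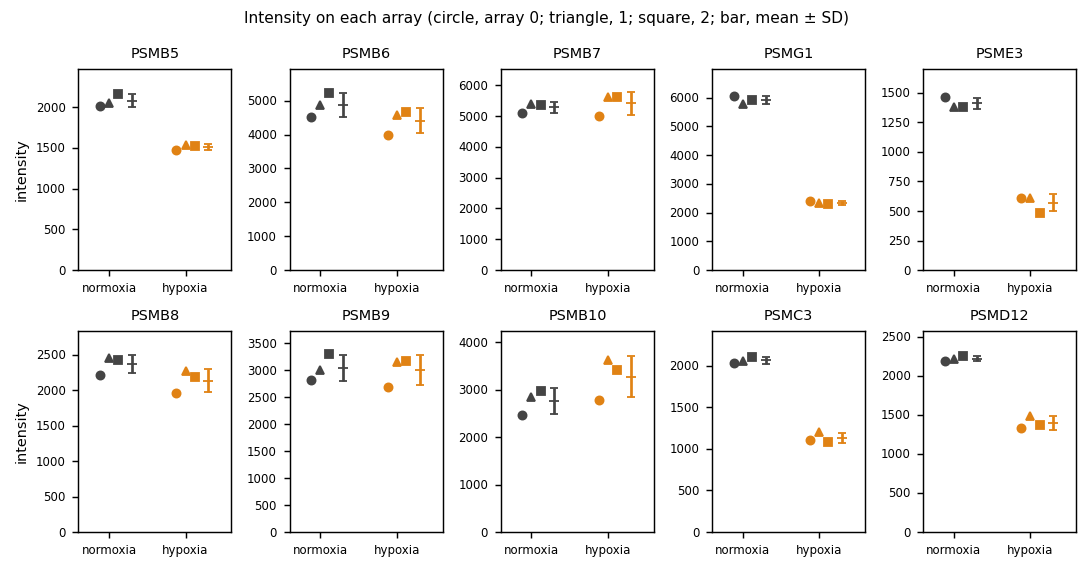
Linear intensity (vertical axis, from 0) on each of the 3 normoxia and 3 hypoxia arrays for the constitutive catalytic subunits PSMB5, PSMB6 and PSMB7, their immunoproteasome counterparts PSMB8, PSMB9 and PSMB10, and PSMG1, PSME3, PSMC3 and PSMD12; bars are the mean ± SD. The groups are separate for PSMB5, PSMG1, PSME3, PSMC3 and PSMD12 and overlap for the other 5 genes.

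In the base of the cap, the ATPase genes PSMC1 to PSMC6 encode the motor that unfolds substrates. Of 5 measured, 3 fell (20.6% of all genes) and 2 did not pass. For all 5, every hypoxia array lay below every normoxia array (25.8% of all genes). PSMC3 was at 2029, 2052 and 2101 in normoxia and at 1104, 1200 and 1082 in hypoxia, which is 54.8% of the normoxia mean (log2 change -0.86, SE 0.063, limma adjusted p = 0.000190). PSMC2 was at 6843, 7051 and 7219 in normoxia and at 5165, 5554 and 5670 in hypoxia (log2 change -0.37, SE 0.063, limma adjusted p = 0.00531). PSMC4 fell by 0.61. PSMC1 and PSMC6 were at -0.17 and -0.15 (limma adjusted p = 0.0592 and 0.106) and passed when dim genes were left out (0.0186 and 0.0410).

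The non-ATPase genes of the base encode its scaffolds and ubiquitin receptors. PSMD1, a scaffold, was at 2901, 3041 and 3087 in normoxia and at 1493, 1674 and 1769 in hypoxia (log2 change -0.87, SE 0.080, limma adjusted p = 0.000432). ADRM1, a ubiquitin receptor, was at 2268, 1952 and 2138 in normoxia and at 1565, 1456 and 1382 in hypoxia (log2 change -0.52, SE 0.083, limma adjusted p = 0.00388). PSMD4, the other classical ubiquitin receptor, was at 3755, 3772 and 3924 in normoxia and at 3860, 4192 and 3976 in hypoxia, with overlapping groups (log2 change 0.070, limma adjusted p = 0.435, with a 95% interval of -0.076 to 0.22). All 4 probe sets of PSMD4 were between 0.012 and 0.15, and none passed. PSMD2, the second scaffold, fell by 0.21 (limma adjusted p = 0.0405), a call that was lost in each of the 6 fits that left out 1 array (limma adjusted p = 0.0653 to 0.112).

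The lid genes encode the part that holds the deubiquitinase. Of 6 measured, 5 fell (20.6% of all genes), with a median change of -0.41 and a range of -0.66 to -0.039. PSMD12 was at 2188, 2218 and 2245 in normoxia and at 1327, 1488 and 1368 in hypoxia (log2 change -0.66, SE 0.064, limma adjusted p = 0.000517). PSMD11 was at 3307, 3418 and 3388 in normoxia and at 2355, 2254 and 2347 in hypoxia (log2 change -0.54, SE 0.053, limma adjusted p = 0.000574). PSMD14, the deubiquitinase of the lid, was at 6309, 6270 and 6125 in normoxia and at 4542, 4562 and 4572 in hypoxia, which is 73.1% of the normoxia mean (log2 change -0.45, SE 0.051, limma adjusted p = 0.000928). PSMD6 fell by 0.37. PSMD3 fell by 0.36 (limma adjusted p = 0.0409), and its call was lost in 5 of 6 fits that left out 1 array, all but that without hypoxia array 2. PSMD8 was at -0.039 and did not pass.

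The activators that can bind the core in place of the cap moved apart. PSME3, the nuclear PA28 gamma subunit, was at 1468, 1382 and 1381 in normoxia and at 613, 609 and 487 in hypoxia (log2 change -1.29, SE 0.103, limma adjusted p = 0.000260). All 4 of its probe sets fell, with changes of -1.71 to -0.79. PSME1, a PA28 subunit that works with the immunoproteasome, was at 3931, 4089 and 4175 in normoxia and at 3940, 4214 and 4241 in hypoxia, with overlapping groups (log2 change 0.023, limma adjusted p = 0.819, with a 95% interval of -0.13 to 0.17). PSME4, which encodes PA200, was at 1418, 1371 and 1270 in normoxia and at 2204, 2304 and 2123 in hypoxia (log2 change 0.70, SE 0.069, limma adjusted p = 0.000534). Its 3 probe sets disagreed: another fell, from 520 ± 17.6 to 310.2 ± 28.8, and the third did not pass, so that their mean was at 0.019 (limma adjusted p = 0.891). PSMF1, the gene of the inhibitor PI31, was at 1415, 1344 and 1422 in normoxia and at 1224, 1269 and 1276 in hypoxia, without overlap (log2 change -0.15, limma adjusted p = 0.0920, with a 95% interval of -0.29 to -0.010). It passed as lower with dim genes left out, with its probe sets averaged, with median centring and with an intensity trend (limma adjusted p = 0.0230 to 0.0411). With quantile normalization its change was -0.055 (limma adjusted p = 0.535). Of its 4 probe sets, a dim one fell (log2 change -0.39, adjusted p = 0.0183 in limma's fit of every probe set).

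Of the 5 measured genes of core assembly 4 fell (20.6% of all genes). With each gene read by its brightest probe set, the lowest change of any member was that of PSMG1. With probe sets averaged, PSMC2 (-1.41) and PSME3 (-1.34) were lower than PSMG1 (-1.33). PSMG1 to PSMG4 encode chaperones that act in pairs on the forming alpha ring, and POMP encodes the chaperone that guides the beta ring and the joining of the core. PSMG1 was at 6043, 5769 and 5927 in normoxia and at 2421, 2323 and 2295 in hypoxia, which is 39.7% of the normoxia mean (log2 change -1.33, SE 0.055, limma adjusted p = 4.07e-05). PSMG2, whose product pairs with that of PSMG1, was at 5515 ± 203 in normoxia and 5478 ± 158 in hypoxia and did not pass (log2 change -0.0095, with a 95% interval of -0.15 to 0.14). PSMG3 and PSMG4, which encode the other pair, both fell. PSMG4 was at 1559, 1427 and 1486 in normoxia and at 708, 735 and 697 in hypoxia (log2 change -1.05, SE 0.061, limma adjusted p = 9.09e-05), and PSMG3 went from 995 ± 51.9 to 427 ± 34.2 (log2 change -1.19, SE 0.081, limma adjusted p = 0.000146). The fall of PSMG4 rests on 1 of its 5 probe sets: the other 4 were dim, with changes of -0.58 to 0.30 that did not pass, and the average of all 5 was -0.29 (limma adjusted p = 0.0246). POMP was at 8131, 7697 and 8197 in normoxia and at 6493, 6317 and 6443 in hypoxia (log2 change -0.32, SE 0.056, limma adjusted p = 0.00574).

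The chaperones of cap assembly, PSMD5, PSMD9 and PSMD10, did not show a common direction. PSMD9 was at 1389, 1421 and 1494 in normoxia and at 1057, 1190 and 1102 in hypoxia (log2 change -0.36, SE 0.069, limma adjusted p = 0.00842). PSMD5 was at 1187, 1105 and 1183 in normoxia and at 1308, 1299 and 1341 in hypoxia. Its hypoxia arrays were all higher, but it did not pass (log2 change 0.18, limma adjusted p = 0.0534, with a 95% interval of 0.040 to 0.32). PSMD10, known as gankyrin, was at 3603 ± 15.7 and 3927 ± 67.8 and did not pass either (log2 change 0.12, limma adjusted p = 0.117). Both passed upward when dim genes were left out (limma adjusted p = 0.0174 for PSMD5 and 0.0416 for PSMD10) and with an intensity trend (0.0126 and 0.0106). PSMD5 also passed with a pseudocount of 64 and with quantile normalization (limma adjusted p = 0.0265 and 0.0114). Neither passed with median centring (limma adjusted p = 0.175 and 0.462) or with probe sets averaged (0.981 and 0.323).

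To compare the classes within arrays, each gene was set to a normoxia mean of 0 and averaged over its class. The constitutive core was at 0.029, -0.034 and 0.0058 in normoxia and at -0.30, -0.22 and -0.24 in hypoxia. This average includes PSMA8, which was at 21.8, 5.73 and 7.32 in normoxia, well below the median probe set. The cap was at -0.0091, -0.016 and 0.025 in normoxia and at -0.44, -0.38 and -0.40 in hypoxia. Core assembly was at 0.027, -0.043 and 0.016 in normoxia and at -0.78, -0.76 and -0.79 in hypoxia. Among these classes core assembly was thus the lowest in each hypoxia array, followed by the cap and then the constitutive core. Within the core, the alpha ring was at -0.36, -0.32 and -0.37 in hypoxia, near the cap. The structural beta subunits were at -0.20, -0.10 and -0.11 there, and the catalytic ones at -0.29, -0.14 and -0.14. The immunoproteasome subunits, at -0.12, 0.031 and 0.089 in normoxia and at -0.14, 0.13 and 0.086 in hypoxia, overlapped between the conditions. These averages over chosen genes carry no test. Median normoxia intensities were 5931 for the constitutive core, 3371 for the cap and 5515 for core assembly. Brightness thus differs between the classes, and its part in this order was not tested.

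**Figure D3:**
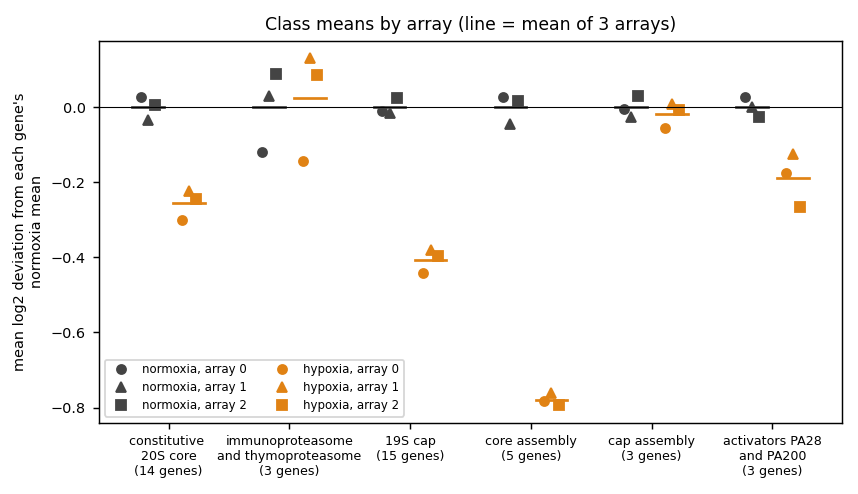
Mean log2 deviation (vertical axis) of the genes of 6 classes from each gene's own normoxia mean, on each of the 3 normoxia (dark) and 3 hypoxia (orange) arrays, with lines at the mean of a group. The hypoxia arrays lie at -0.78, -0.76 and -0.79 for core assembly and overlap the normoxia arrays for the immunoproteasome and cap assembly.

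The arrays numbered 0 stood apart for part of the members. Both of them were the lowest of their group for 20 of the 44 genes and the highest for 9. The same count was not made over all genes, where the deviations of these arrays correlated at 0.24. Without both arrays, 21 member genes fell, against 23 with all arrays, and the median change of the cap was -0.35 and that of core assembly -1.01. Their part in the results was not tested further.

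Read probe set by probe set and adjusted over the whole table of probe sets, 36 of the 84 probe sets fell, 5 rose and 43 did not pass, against 15.2% of all probe sets that fell and 15.5% that rose. PSMD2 and PSMD3, past the threshold as genes, did not pass here (limma adjusted p = 0.0764 and 0.0539). Of 9 genes with more than 1 probe set that fell, 8 had a larger fall in every dimmer probe set than in the brightest. How common this is over all genes was not determined. The brightest probe set of PSMC2 had a change of -0.37, whereas another went from 1482 ± 79.4 to 355 ± 37.2 (log2 change -2.02) and the remaining one from 751 ± 54.6 to 197 ± 18.3 (log2 change -1.85). PSMA5, POMP, PSMD11 and PSMD12 had changes of -0.67, -0.32, -0.54 and -0.66 in their brightest probe set and of -1.86, -1.22, -1.29 and -1.52 in the other. PSMA2, which did not pass as a gene, fell in its dimmer probe set from 2049 ± 103 to 1158 ± 15.5 (log2 change -0.81, adjusted p = 0.000422 in limma's fit of every probe set). The size of changes also differed by brightness outside the members: 95% of genes had an absolute change of at most 0.93 where the mean intensity was between 4096 and 8192, and of at most 1.44 where it was between 1024 and 2048. Whether such probe sets read different transcript forms or respond differently at high intensity was not tested.

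Of 23 genes with several probe sets, 4 had probe sets past the threshold in opposite directions: PSMA3, PSMB2, PSMD6 and PSME4. How common such opposite calls are among all genes with several probe sets was not determined. In PSMA3 a probe set rose from 56.5 ± 6.22 to 137 ± 14.0, in PSMD6 one rose from 36.4 ± 5.04 to 61.9 ± 0.966, and in PSMB2 one rose from 63.3 ± 4.07 to 115 ± 0.682. These 3 were dim, near the median probe set of the arrays. A further probe set of PSMB2 was not dim and rose from 1674 ± 189 to 2679 ± 289 (log2 change 0.67, adjusted p = 0.00751 in limma's fit of every probe set). When a gene was read by the average of its probe sets, the changes of PSMA3, PSMB2 and PSMD6 turned to 0.20, 0.19 and 0.10, and none of these passed.

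**Figure D4:**
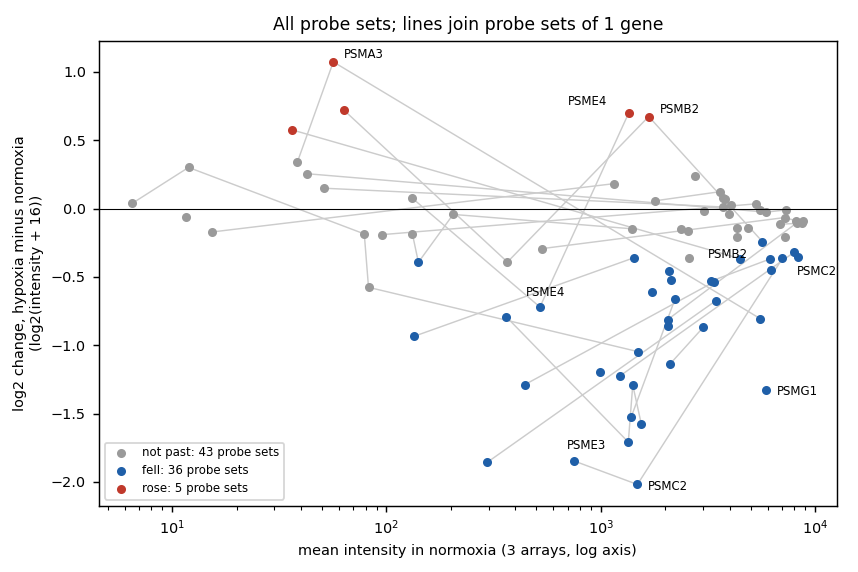
Log2 change (vertical axis) of the 84 probe sets of subunit, regulator and assembly genes against their mean normoxia intensity (horizontal log axis, 3 arrays), coloured by the limma call over all probe sets, with lines that join probe sets of 1 gene. The changes of PSMC2 range from -0.37 in its brightest probe set to -2.02, and PSME4, PSMB2 and PSMA3 have probe sets on both sides of 0.

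The 7 genes that share only the start of a symbol were read apart. Of these, 3 rose and 4 did not pass, beside 16.9% of all genes that rose and 20.6% that fell. Their median normoxia intensity was 182. PSMD14-DT went from 47.4 ± 6.37 to 81.0 ± 6.74 (log2 change 0.62, limma adjusted p = 0.00391), PSMD6-AS2 from 176, 192 and 177 to 228, 263 and 241 (0.39, limma adjusted p = 0.00774) and PSMB8-AS1 from 767 ± 31.2 to 928 ± 51.6 (0.27, limma adjusted p = 0.0237). The last call was lost with median centring (limma adjusted p = 0.0874), with its probe sets averaged (0.0739) and in 4 of the 6 fits that left out 1 array: those without hypoxia array 0 or 1 and without normoxia array 1 or 2. PSMA3-AS1 was at -0.14 in its brightest probe set and rose in the others, by 0.39 and 0.52. PSMD6 and PSMD14 themselves fell, as given above.

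Other genes of the ubiquitin-proteasome system were examined as a list of 32, of which 27 were measured. Of these, 14 fell, 2 rose and 11 did not pass, with a median change of -0.34. Of all genes 20.6% fell and 16.9% rose. The list had normoxia means of 486 to 11217, and among genes with a mean intensity between 1024 and 8192, 37.4% fell. UCHL5 and USP14, deubiquitinases that bind the cap, fell from 2823 ± 11.3 to 1253 ± 10.1 (log2 change -1.16, limma adjusted p = 4.13e-05) and from 5489 ± 22.2 to 3141 ± 165 (log2 change -0.80, limma adjusted p = 0.000222). UBQLN4, a shuttle of ubiquitinated proteins, fell by 0.89, and NFE2L3, a transcription factor related to NFE2L1, by 0.73. NFE2L1 itself, which is processed into the factor that raises proteasome genes when the proteasome is inhibited, went from 5859 ± 242 to 4607 ± 28.1 (log2 change -0.35, limma adjusted p = 0.00463). SEM1, a small lid subunit outside the symbol rule, was at -0.085 and did not pass.

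Genes of antigen presentation use the peptides cut by the immunoproteasome. Of 13 measured, 3 rose, 5 fell and 5 did not pass (median -0.13). Of all genes 16.9% rose and 20.6% fell, and 37.4% fell among genes between 1024 and 8192. The count that fell was thus near the share among genes of that brightness. The peptide transporter subunits differed, as TAP1 rose by 0.44 (limma adjusted p = 0.00326) and TAP2 fell by 0.56 (limma adjusted p = 0.00108). HLA-E rose by 0.42, and the trimming peptidase gene ERAP2 fell by 0.49. TAP1 and PSMB9 are known neighbours with starts that face away from each other, and PSMB9 was at -0.017.

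Promoters were searched for the core of the antioxidant response element, TGACNNNGC, to which NFE2L1 is known to bind in front of proteasome genes. RefSeq promoter sequences (GRCh38.p14, the 250 bases before a start) were found for 38 of the 44 genes, with 46 starts. On either strand the motif was present in 13 of the 46 starts (28.3%) and in 10.9% of all 35116 starts. By gene, 12 held it, of which 6 fell, 1 rose and 5 did not pass, and of the 26 without it 15 fell, 0 rose and 11 did not pass in limma. The motif is shown for PSMG1, the lowest by the brightest probe set, for the lid gene PSMD12 and for PSMB9, which did not pass. The matches share the fixed letters of the motif and differ at the positions marked N. These genes were picked for display, and a link between motif and change was not tested. Sequences are printed on the strand of the gene, 5′ to 3′, with the motif or its reverse complement in capitals.
PSMG1 (chr21:39183515-39183701, minus strand, with the bases nearest the start left out because they lie within the annotated gene): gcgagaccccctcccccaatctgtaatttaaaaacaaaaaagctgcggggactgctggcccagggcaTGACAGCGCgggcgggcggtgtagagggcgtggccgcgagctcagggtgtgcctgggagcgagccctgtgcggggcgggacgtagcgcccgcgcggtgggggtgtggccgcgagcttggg
PSMD12 (chr17:67366578-67366827, minus strand): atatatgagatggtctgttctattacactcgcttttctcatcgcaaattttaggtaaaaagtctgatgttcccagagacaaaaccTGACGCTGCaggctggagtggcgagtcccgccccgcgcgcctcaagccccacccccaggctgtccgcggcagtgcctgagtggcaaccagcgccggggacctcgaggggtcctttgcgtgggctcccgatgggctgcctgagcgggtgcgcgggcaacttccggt
PSMB9 (chr6:32853942-32854191, plus strand): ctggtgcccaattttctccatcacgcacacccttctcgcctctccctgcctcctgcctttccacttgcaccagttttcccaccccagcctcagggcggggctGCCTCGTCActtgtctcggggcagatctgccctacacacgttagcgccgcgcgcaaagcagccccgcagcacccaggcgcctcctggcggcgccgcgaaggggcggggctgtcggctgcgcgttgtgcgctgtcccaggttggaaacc
The motif begins 183 bases before the start in PSMG1, 165 in PSMD12 and 148 in PSMB9. The CCAAT box, CCAAT, was present on either strand in 39.1% of the member starts and 32.0% of all starts. The E-box CACGTG was present in 6.52% and 6.34%, and ACGTG, the core of the hypoxia response element, which the E-box contains, in 17.4% and 18.5%. A match of letters is a description and not a site.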

How the data were processed

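The authors deposited 1 table of linear intensity values, 1 per probe set and array. The labels' protocols name an RNeasy kit and biotin-labelled cRNA. Background correction, probe summary and scaling are not given in the sources used here, and no detection calls were used. Gene symbols came from the platform's annotation: 41091 probe sets had 1 gene symbol, 1801 several and 11721 none here, and 41037 of the first were matched by Entrez identifier to RefSeq for current symbols. A gene was represented by the brightest (mean log2 over the 6 arrays) of the probe sets that carry its symbol alone. Hypoxia was compared with normoxia by lmFit and eBayes of limma 3.58.1 (R 4.3.3) on log2(intensity + 16), which understates changes of dim genes, with no covariates and no filter, two-sided, adjusted over 19775 genes or 54613 probe sets; the procedure was checked on simulated data. Members, classes and lists were chosen with earlier results of these data known. Values on every array are given for the 2 members of each class with the smallest adjusted p and for PSMB5 to PSMB10, PSME1, PSMD4, PSMD14, ADRM1, POMP and PSMG1; of the other lists, the 4 genes with the smallest adjusted p and NFE2L1 are given, and others are named after their values were seen. Alternatives were another pseudocount (1 or 64), leaving out dim genes, averaging the probe sets of each gene, median centring, quantile normalization, an intensity trend, a replicate block and leaving out arrays. The arrays were treated as unpaired in the main fit. Deviations of same-numbered arrays correlated at 0.24, 0.0064 and 0.21, and those of the other pairs at -0.25 to 0.11. These values do not settle whether the arrays were paired, and the replicate block is given as an alternative for that reason.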

Additional observations from a re-analysis of the deposited data

How the results depend on the processing

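Of the 23 member genes that fell, 18 fell under each of the 15 alternatives; the exceptions were PSMA3, PSMB2, PSMD2, PSMD3 and PSMD6. With the probe sets of a gene averaged, the changes of PSMA3, PSMB2, PSMD6 and PSMA3-AS1 were 0.20, 0.19, 0.10 and 0.26, opposite in sign to those of the brightest probe set; the dim or opposed probe sets that enter this average are described above. Median changes with this average were -0.038 for structural beta subunits, 0.0054 for cap assembly, -0.61 for the ATPases, -0.77 for core assembly, -0.19 for PI31 and -0.45 for the cap. Median centring, which moved the median over all genes to -0.066, gave -0.042 for the activators, -0.42 for the alpha ring, -0.21 for structural beta subunits, 0.058 for cap assembly, -0.43 for the ATPases, -0.43 for the other base subunits, -0.47 for the lid, -1.11 for core assembly, -0.21 for PI31, -0.24 for the constitutive core, -0.43 for the cap and -0.29 for all 44 genes. Quantile normalization gave -0.095 for structural beta subunits, -0.32 for the ATPases, -0.33 for the other base subunits, -0.97 for core assembly, -0.055 for PI31 and -0.14 for the constitutive core. Core assembly was at -0.9997 with a pseudocount of 64 and at -1.01 without both arrays numbered 0. Except with probe sets averaged, the core assembly median was the change of PSMG4 in every setting. Leaving out 1 array in turn gave -0.39 to -0.33 for the ATPases, -1.08 to -1.01 for core assembly, -0.22 to -0.14 for the constitutive core, -0.43 to -0.33 for the cap and -0.26 to -0.20 for all 44 genes. Across alternatives 20 to 28 member genes fell and 3 to 6 rose, of 51 tested, or of 48 where dim genes were left out. With the replicate number as a block, 24 genes fell and 4 rose, as PSMB3 passed (limma adjusted p = 0.0402) and no other member's call changed; same-numbered arrays did not all correlate best with each other. The cause of these differences was not tested. Only 3 arrays per group limit the precision, and no detection calls were used for dim probe sets.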
